A study of Mus musculus with 4 samples.

Results

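Keratins are the intermediate filament proteins of epithelial cells. A keratin filament is an obligate partnership of a type I (acidic) and a type II (basic) keratin, so that cells express the genes in matched sets. In the mammary gland, luminal cells are marked by Krt8 and Krt18 with Krt7 and Krt19, and basal, myoepithelial cells by Krt5 with Krt14, with Krt6a, Krt15 and Krt17 in progenitor, hair follicle or stressed epithelium. The genes described here are 10 keratins taken by symbol from 24411 listed genes, 5 called luminal (Krt7, Krt8, Krt18, Krt19, Krt20) and 5 called basal (Krt5, Krt6a, Krt14, Krt15, Krt17). All 10 had a row in each library. They were measured in 4T1, a mouse mammary carcinoma line that is long established in culture.

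The series compared 2 control libraries with 2 libraries labelled CD95 knockout, and asks what differs once CD95, the Fas ligand receptor encoded by Fas, is disrupted in the tumour cells. Per the labels' protocols, the clones were derived from a 4T1 line carrying lentiviral Cas9 under blasticidin selection, transfected with a pair of guides meant to delete exon 9 of the gene, and each knockout library is 1 clone grown from a sorted cell. The RNA sources listed there are an untransduced control, the Cas9 line and 2 clones. Sample titles do not tell which control is the Cas9 line, so Cas9 and selection cannot be told apart from the other differences between controls. Guide transfection, sorting and growth from 1 cell were described only for the clones, so they cannot be told apart from disruption of CD95. Nothing in the labels describes repeat cultures of a line, and p-values measure only the spread between these libraries.

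Every library was deposited as TPM, a transcript abundance scaled to the same sum in each library, which divides by transcript length and therefore allows levels of different genes to be compared. Sequencing depth is unknown from TPM, and genes above 0 numbered between 11193 and 12010. Fas itself was listed at 49.4 and 39.2 TPM in controls 1 and 2, at 15.8 TPM in the library labelled CD95ko1 and at 49.5 TPM in the library labelled CD95ko2. The transcript level therefore did not mark the library labelled CD95ko2 as a knockout, and gene-level TPM does not show exon 9. Leukocyte markers (5 of 5) were listed at 0 in all 4 libraries, as were 3 of 4 endothelial markers, the exception being Tek at 0.28 TPM in control 2. The 7 fibroblast markers summed to between 0.97 and 4.52 TPM.

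The 4T1 libraries had a luminal keratin set with little of the basal one. Luminal keratins summed to 4212 and 4256 TPM in controls 1 and 2, to 7398 TPM in the library labelled CD95ko1 and to 11616 TPM in the library labelled CD95ko2. Basal keratins summed to 25.8 and 47.2 TPM in controls 1 and 2, to 13.8 TPM in the library labelled CD95ko1 and to 158 TPM in the library labelled CD95ko2. Luminal genes thus held between 97.8% and 99.2% of all keratin TPM in each library. All 52 genes with a keratin symbol together took 0.431% and 0.434% of the TPM in controls 1 and 2, 0.746% in the library labelled CD95ko1 and 1.18% in the library labelled CD95ko2. Being bulk RNA, these values cannot tell more cells of a type from more RNA per cell.

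**Figure D1:**
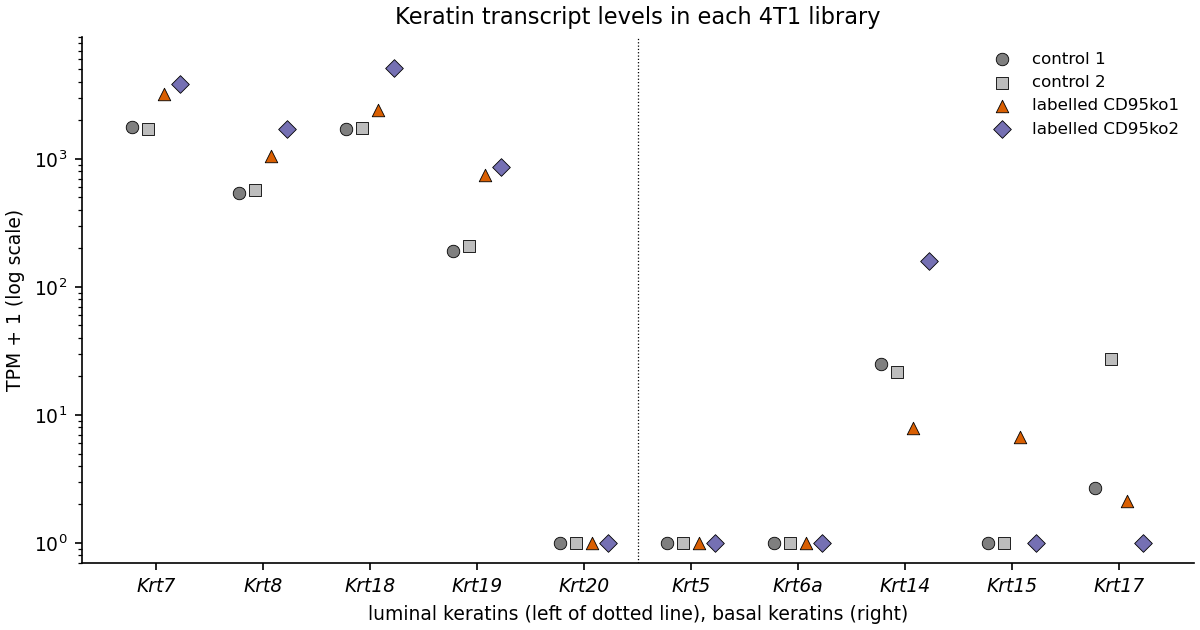
Level of each of the 10 keratins in each library, as TPM + 1 on a log axis, with luminal genes on the left and basal genes on the right; a value of 1 on this axis is a gene listed at 0. For Krt7, Krt8, Krt18 and Krt19 both libraries labelled CD95ko lie above both controls, whereas Krt14 is highest in the library labelled CD95ko2 and lowest in the library labelled CD95ko1.

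Differences between the groups were tested with limma on log2(TPM + 1) over the 11167 genes with at least 1 TPM in at least 2 libraries, with Benjamini-Hochberg adjustment over all of them and a threshold of 0.05. Fold changes on this scale understate the change of weakly expressed genes. Of the 10 keratins 6 passed the filter, Krt7, Krt8, Krt18, Krt19, Krt14 and Krt17. None of the 6 passed the adjusted threshold, which 6 of all tested genes did (0.0537%). At an unadjusted limma p under 0.05, 4 keratins were higher (9.25% of all tested genes were) and 1 was lower (5.68% were). With every library set to the same median, 2 keratins reached that p, Krt8 and Krt19, and 3 did without the mean-variance trend or without ribosomal protein genes. With a library left out the number was 2 without control 1, 1 without control 2, 6 without the library labelled CD95ko1 and 4 without the library labelled CD95ko2. Groups did not overlap for the same 4 higher keratins, against 29.2% of all tested genes, and for the 1 lower keratin, against 18.3%. The median log2 fold change over every tested gene was 0.13, and it was 0.002 after quantile normalization. Keratin fold changes can be read against that median.

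Among type II luminal keratins, Krt7, a marker of simple and ductal epithelium, was the most abundant in each library. It lies on chromosome 15 from 101411043 to 101430313 (GENCODE M21, GRCm38). Its level was 1780 and 1723 TPM in controls 1 and 2, 3187 TPM in the library labelled CD95ko1 and 3876 TPM in the library labelled CD95ko2. Controls lay close together and both libraries labelled CD95ko were above them, at 1.82-fold and 2.21-fold the control mean. The log2 fold change was 1.00 ± 0.27 SE, or 0.88 above the median of all tested genes, with a limma adjusted p of 0.166.

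Krt8, the type II keratin of all simple epithelia, was 537 and 570 TPM in controls 1 and 2. It was 1047 TPM in the library labelled CD95ko1 and 1722 TPM in the library labelled CD95ko2. The groups did not overlap, and the 2 libraries labelled CD95ko differed 1.64-fold from each other. On the log2 scale the difference was 1.28 ± 0.32 SE (limma adjusted p = 0.147). Of the 25-base stretches in its longest transcript 35.9% also occur in transcripts of other genes, 34.6% in the pseudogene Krt8-ps. Its level may thus depend on how shared reads were assigned, which was not examined.

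Krt18, the type I partner of Krt8, was 1707 and 1753 TPM in controls 1 and 2. It was 2412 TPM in the library labelled CD95ko1 and 5160 TPM in the library labelled CD95ko2. Both were above the controls, but the library labelled CD95ko2 held 2.14-fold more than the library labelled CD95ko1. Krt18 had the 17th highest value of all genes in the library labelled CD95ko2, against ranks of 96 and 100 in the controls. The log2 fold change was 1.03 ± 0.37 SE (limma adjusted p = 0.257). With the library labelled CD95ko2 left out it was 0.48, and with the library labelled CD95ko1 left out it was 1.58. Other genes share 18.3% of the 25-base stretches of its transcript.

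Krt19, a small type I keratin found in luminal and progenitor cells, differed most among the luminal genes. Its level was 189 and 209 TPM in controls 1 and 2, 751 TPM in the library labelled CD95ko1 and 859 TPM in the library labelled CD95ko2. Libraries were close within both groups, and the group means of 199 ± 14.3 and 805 ± 75.9 TPM (SD, n = 2 libraries in each group) differed 4.05-fold. The log2 fold change of 2.01 ± 0.28 SE had the 9th smallest p of all tested genes and a limma adjusted p of 0.0594, just outside the threshold. Another pseudocount, filter, variance trend or scaling and the replicate block each moved it further from the threshold, to limma adjusted p-values between 0.131 and 0.194. With limma's robust eBayes, tried after the data had been seen, it was called (adjusted p = 0.0258), the only keratin among 52 genes called there (0.466% of those tested). Only 3.41% of the 25-base stretches of its transcript occur elsewhere.

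Krt20, a type I keratin of gut and urothelial epithelium, was listed at 0 in all 4 libraries.

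RefSeq windows (GRCm38.p6) reaching from 250 bases before to 50 after an annotated start were found for 6 of the 10 keratins, Krt7, Krt8, Krt18, Krt20, Krt5 and Krt14, and not for Krt19, Krt6a, Krt15 and Krt17. RefSeq starts differed from those of GENCODE M21. The Krt14 window was left out, since its start lies 1518 bases inside the gene, past the start of the protein-coding transcript. Within the stated extent of Krt7 the RefSeq start lies 1360 bases from the 5′ end, which belongs to other transcripts, and 1 base from the start of a protein-coding transcript. The Krt8 and Krt18 starts lie 140 and 36 bases inside their GENCODE transcripts. Upstream bases outside coding-transcript exons are shown for Krt7 (chr15:101412153-101412401, forward strand), Krt8 (chr15:102004483-102004592, reverse strand) and Krt18 (chr15:102027966-102028179, forward strand), because these 3 genes were higher together. Each is given 5′ to 3′ on the gene's strand, and capitals mark matches to 4 motifs searched on both strands in the whole RefSeq window. The motifs were TATAAA (the TATA box), GGGCGG (the GC box of SP and KLF factors), CACCTG (an E-box that SNAI and ZEB repressors can bind) and TGANTCA (the AP-1 motif).
Krt7: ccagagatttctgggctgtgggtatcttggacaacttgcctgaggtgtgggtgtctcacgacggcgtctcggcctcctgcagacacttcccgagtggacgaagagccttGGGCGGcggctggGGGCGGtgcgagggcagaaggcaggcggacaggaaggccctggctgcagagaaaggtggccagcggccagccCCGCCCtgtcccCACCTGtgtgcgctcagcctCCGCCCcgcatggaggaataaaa
Krt8: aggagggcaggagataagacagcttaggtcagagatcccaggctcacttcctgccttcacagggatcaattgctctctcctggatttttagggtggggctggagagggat
Krt18: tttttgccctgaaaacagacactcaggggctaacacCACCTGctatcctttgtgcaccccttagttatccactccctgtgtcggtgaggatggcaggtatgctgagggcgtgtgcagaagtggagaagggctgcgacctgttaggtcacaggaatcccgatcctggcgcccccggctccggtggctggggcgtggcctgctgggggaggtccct

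All 3 windows hold 1 CACCTG on the gene's strand, starting 44 bases before the RefSeq start in Krt7, 111 bases before it in Krt8 and 214 bases before it in Krt18. In Krt8 that match lies inside the first exon of GENCODE and is not among the bases shown. A match to CACCTG on either strand occurs in 20.2% of the 32851 windows of this length in the table. The window of Krt5, a gene listed at 0, also holds it, on the other strand, and that of Krt20 does not. Krt7 holds 4 GGGCGG matches, 2 on each strand, where 35.7% of all windows hold at least 1, and the other 4 keratin windows hold none. TATAAA was found in Krt20, from 29 to 24 bases before the start, and in Krt8 across the RefSeq start, where its letters overlap a match on the other strand (13.6% of all windows). TGANTCA was in none of the 5 windows (7.81% of all). These are matches of letters, and binding was not measured.

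Basal keratins shared no direction. Krt5, the type II keratin that defines basal cells, and Krt6a, a type II keratin of stressed or proliferating epithelium, were listed at 0 in all 4 libraries. So was Trp63, the transcription factor of basal epithelium. Krt6a shares 54.0% of its 25-base stretches with other genes, mostly Krt6b, which was also listed at 0 throughout. The type II basal partner was thus at 0 in every library in which a basal type I keratin was measured.

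Krt14, the type I partner of Krt5, was 24.1 and 20.7 TPM in controls 1 and 2, 6.98 TPM in the library labelled CD95ko1 and 158 TPM in the library labelled CD95ko2. The controls lay between the 2 libraries labelled CD95ko, which differed 22.7-fold. A larger difference between those 2 libraries, on the log2 scale, was found for 0.528% of all tested genes. The log2 fold change between groups was 0.61 ± 1.10 SE (limma adjusted p = 0.837), but it was -1.55 without the library labelled CD95ko2 and 2.77 without the library labelled CD95ko1. Its direction therefore depended on which library labelled CD95ko was kept, and clone cannot be told apart from library. Reads may be shared with close paralogs, since 35.4% of its 25-base stretches occur in other genes and 21.3% in Krt16.

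Krt17, a type I keratin of hair follicle, injured skin and basal tumours, was 1.67 TPM in control 1 and 26.6 TPM in control 2. It was 1.11 TPM in the library labelled CD95ko1 and listed at 0 in the library labelled CD95ko2. The groups did not overlap, but control 1 lay beside the library labelled CD95ko1, and the controls differed 15.9-fold. Its log2 fold change was -2.56 ± 1.04 SE (limma adjusted p = 0.298), -4.25 without control 1 and -0.88 without control 2. Of its 25-base stretches 21.0% are shared with other genes.

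Krt15, a type I keratin of basal and stem cells, was listed at 5.75 TPM in the library labelled CD95ko1 and at 0 in the other 3 libraries, and was not tested. Its gene ends 4.9 kb from Krt19 in the type I cluster of chromosome 11 (Krt15 from 100131758 to 100135928, Krt19 from 100140810 to 100148665), where Krt14 follows 54.5 kb further on. Neighbouring genes of the cluster thus had unlike levels, with Krt19 at 189 TPM or more beside Krt15 at 5.75 TPM or less. On chromosome 15, Krt18 is the 1 type I gene among type II genes and lies 23.7 kb from its partner Krt8, while Krt7 lies 566.4 kb from Krt8.

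Each library labelled CD95ko was also set against both controls by itself, assuming that a lone library varies as the 2 controls did. In the library labelled CD95ko2, 5 of the 6 tested keratins were called, among 9.26% of all tested genes, all higher than in the controls. Their log2 fold changes were 1.15 for Krt7, 1.64 for Krt8, 1.58 for Krt18, 2.11 for Krt19 and 2.77 for Krt14 (limma adjusted p between 0.000551 and 0.016). In the library labelled CD95ko1 only Krt19 was called, among 1.74% of all tested genes, at 1.91 (limma adjusted p = 0.00163), with Krt7 at 0.86, Krt8 at 0.92 and Krt18 at 0.48. Both comparisons share the controls. The difference between the 2 libraries labelled CD95ko has no replicate and was not tested.

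**Figure D2:**
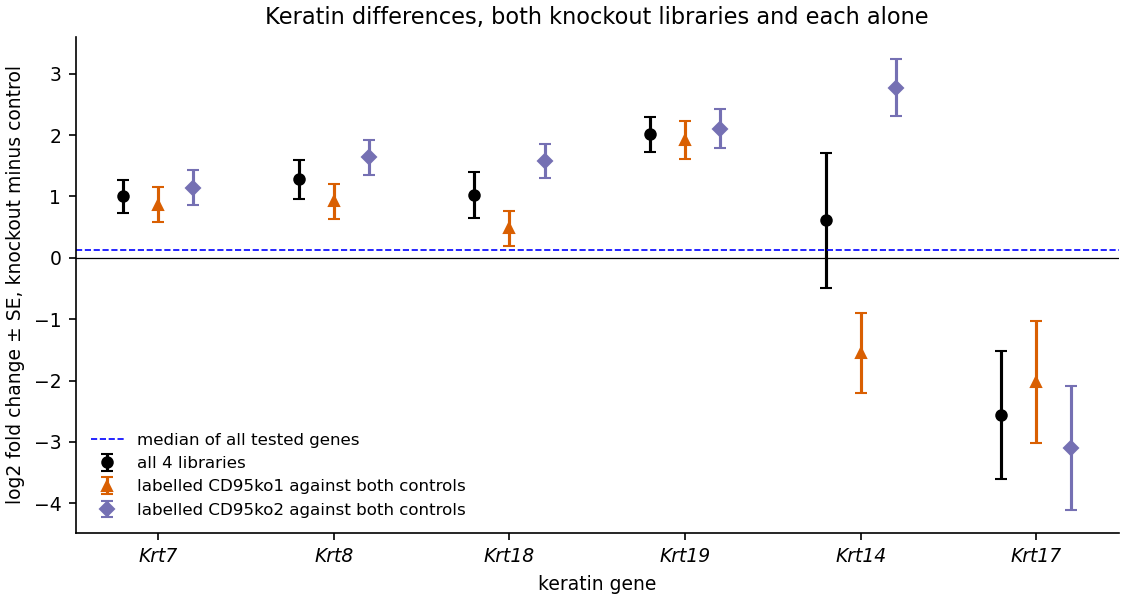
Log2 fold change ± SE from limma on log2(TPM + 1) for the 6 tested keratins, with all 4 libraries (black) and for each library labelled CD95ko against both controls (coloured); the dashed line is the median of all tested genes, 0.13. The 4 luminal keratins lie above 0 in all 3 fits, whereas Krt14 is at -1.55 in the library labelled CD95ko1 and at 2.77 in the library labelled CD95ko2.

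The make-up of the luminal set was nearly the same in both controls and differed in the libraries labelled CD95ko. Krt18 held 40.5% and 41.2% of luminal TPM in controls 1 and 2, against 32.6% and 44.4% in the libraries labelled CD95ko1 and CD95ko2. For Krt7 the shares were 42.3% and 40.5%, against 43.1% and 33.4%. For both genes the controls lay between the libraries labelled CD95ko. Krt8 held 12.7% and 13.4%, against 14.2% and 14.8%. Krt19 made up 4.48% and 4.91% of luminal keratin TPM in controls 1 and 2, 10.2% in the library labelled CD95ko1 and 7.39% in the library labelled CD95ko2. The ratio of Krt7 to Krt19 was 9.44 and 8.25 in controls 1 and 2, against 4.24 and 4.51 in the libraries labelled CD95ko1 and CD95ko2. Here the groups did not overlap and each was close within itself. For such a ratio, an exact two-sided permutation test of 2 libraries against 2 has 0.33 as its smallest p.

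Partner ratios varied more between the libraries labelled CD95ko. Krt8 stood to Krt18 at 0.314 and 0.325 in controls 1 and 2, 0.434 in the library labelled CD95ko1 and 0.334 in the library labelled CD95ko2. Both libraries labelled CD95ko were above both controls, the library labelled CD95ko2 by little. All type II keratins summed to 1.22 and 1.15 times the type I keratins in controls 1 and 2, 1.34 times in the library labelled CD95ko1 and 0.907 times in the library labelled CD95ko2. For this ratio the controls lay between the 2 libraries labelled CD95ko, and the library labelled CD95ko2 had more type I than type II keratin transcript, where the other 3 had less.

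**Figure D3:**
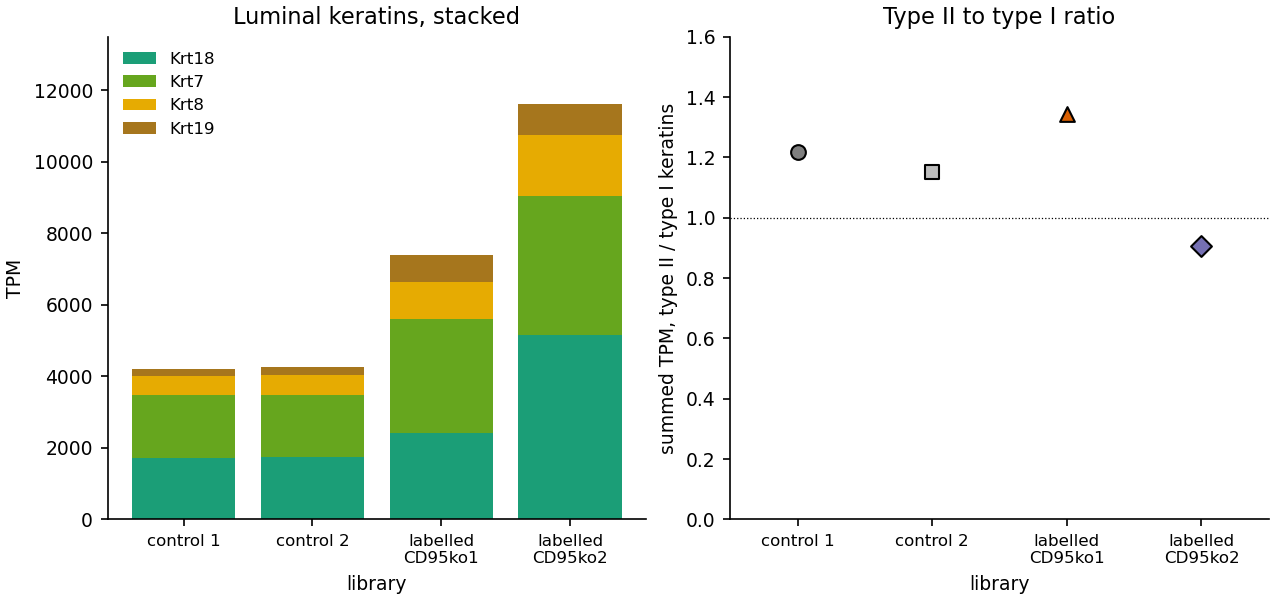
Left, TPM of the 4 detected luminal keratins stacked for each library (Krt20 was at 0); right, summed TPM of all type II keratins divided by that of all type I keratins, with equality dotted. The stacks reach 4212 and 4256 TPM in controls 1 and 2, 7398 and 11616 TPM in the libraries labelled CD95ko1 and CD95ko2, and the ratio falls below equality, to 0.907, in the library labelled CD95ko2 alone.

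The log2 ratio of summed luminal to summed basal keratin TPM was 7.30 and 6.46 in controls 1 and 2, 8.96 in the library labelled CD95ko1 and 6.19 in the library labelled CD95ko2. The group difference of 0.69 was smaller than the spread between libraries of a group (pooled SD 1.45). It was -0.69 without the library labelled CD95ko1 and 2.08 without the library labelled CD95ko2, and Krt14 made up all of the basal TPM in the library labelled CD95ko2. With each gene weighted equally, as a difference of mean log2(TPM + 1), the values were 6.42 and 5.84 in controls 1 and 2, against 7.13 and 7.49 in the libraries labelled CD95ko, which did not overlap. Krt5 and Krt6a were listed at 0 throughout, and Krt14 and Krt17 differed in direction, so the luminal genes carried most of this difference.

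Of the 42 other keratin genes, 33 were listed at 0 in all 4 libraries and 6 exceeded 1 TPM in any. Krt80, a type II keratin, was the most abundant, at 48.3 and 26.9 TPM in controls 1 and 2, 39.8 TPM in the library labelled CD95ko1 and 13.6 TPM in the library labelled CD95ko2, with overlapping groups. Krt10, the type I keratin of differentiated epidermis, was 11.7 and 8.35 TPM in controls 1 and 2, listed at 0 in the library labelled CD95ko1 and at 3.24 TPM in the library labelled CD95ko2 (limma adjusted p = 0.223). Krt13, a type I keratin of mucosal squamous epithelium, was 0.98 TPM and 0 in controls 1 and 2, against 5.17 and 2.7 TPM in the libraries labelled CD95ko1 and CD95ko2 (limma adjusted p = 0.293). Krt13 reached 1 TPM only in the libraries labelled CD95ko, so it entered the test only through the group in which it was higher. Krt16, a paralog of Krt14, was 5.63 TPM in control 1, 4.45 TPM in the library labelled CD95ko2 and listed at 0 in the other 2 libraries. Krt42 was listed at 1.63 TPM in control 1 alone, and Krt25 at 2.1 TPM in the library labelled CD95ko2 alone. None of the 4 tested was called.

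Vimentin, the intermediate filament of mesenchymal cells, was lower in both libraries labelled CD95ko, in which luminal keratins were higher than in the controls. Within that pair, both Vim and luminal keratins were higher in the library labelled CD95ko2. Vim was 652 and 629 TPM in controls 1 and 2, 92.9 TPM in the library labelled CD95ko1 and 211 TPM in the library labelled CD95ko2 (log2 fold change -2.18 ± 0.39 SE, limma adjusted p = 0.0847). Luminal keratin TPM was 6.46 and 6.77 times that of Vim in controls 1 and 2, 79.6 times in the library labelled CD95ko1 and 55.0 times in the library labelled CD95ko2. Of the 15 other intermediate filament genes 6 were tested and 0 were called. The median log2 fold change of the 6 was -0.11, against 0.13 for all tested genes. The lamin gene Lmnb1 was 44.8 and 30.1 TPM in controls 1 and 2, against 66.5 and 66.6 TPM in the libraries labelled CD95ko1 and CD95ko2 (limma adjusted p = 0.338). Both Lmna, which encodes lamins of the nuclear envelope, and Nes, which encodes nestin, overlapped between groups, with log2 fold changes of -0.38 and -0.39.

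Desmosomes and hemidesmosomes anchor keratin filaments at the cell surface through plakins. Of 22 such genes 17 were tested, and 9 were higher at an unadjusted limma p under 0.05 (background 9.25%) and 0 lower (5.68%). Groups did not overlap for 11, all higher (29.2% of tested genes). The median log2 fold change was 1.27 against 0.13 for all tested genes, and 0 passed the adjusted threshold. The 9 became 5 without control 1, 1 without control 2, 6 without the library labelled CD95ko1 and 9 without the library labelled CD95ko2, with a median between 0.92 and 1.47. Ppl, which encodes periplakin, a linker of keratin to membranes, was 6.12 and 4.68 TPM in controls 1 and 2, 20.9 TPM in the library labelled CD95ko1 and 61.1 TPM in the library labelled CD95ko2 (log2 fold change 2.54 ± 0.59 SE, limma adjusted p = 0.144). Jup, encoding the desmosomal plaque protein plakoglobin, was 74.9 and 49.5 TPM in controls 1 and 2, against 132 and 220.2 TPM in the libraries labelled CD95ko1 and CD95ko2 (limma adjusted p = 0.159). For Perp, a desmosomal membrane protein gene, the log2 fold change was 1.28 (limma adjusted p = 0.15). Itgb4, the hemidesmosomal integrin subunit, had a log2 fold change of 1.39 (limma adjusted p = 0.187).

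Among 23 transcription factors of epithelial differentiation and their repressors, 16 were tested, and 0 were called. At an unadjusted limma p under 0.05, 1 was higher (9.25% of all tested genes were) and 2 were lower (5.68% were). The 2 lower became 0 without control 1, 1 without control 2, 3 without the library labelled CD95ko1 and 4 without the library labelled CD95ko2, and the 1 higher became 3 without the library labelled CD95ko1 and 0 without control 2. Their median log2 fold change was -0.16, and 0.05 without the library labelled CD95ko1. Foxa1, a luminal factor, was 1.12 and 0.41 TPM in controls 1 and 2, against 4.95 and 5.18 TPM in the libraries labelled CD95ko1 and CD95ko2 (limma adjusted p = 0.25). Elf3, an epithelial ETS factor, was 73.1 and 62.7 TPM in controls 1 and 2, 80.4 TPM in the library labelled CD95ko1 and 276 TPM in the library labelled CD95ko2 (limma adjusted p = 0.358). Twist1, an inducer of the mesenchymal state, was 37.7 and 30.3 TPM in controls 1 and 2, against 12.2 and 17.0 TPM in the libraries labelled CD95ko1 and CD95ko2 (limma adjusted p = 0.267). Sox9, a progenitor factor, had a log2 fold change of -1.13 (limma adjusted p = 0.256). Of the repressors that can bind the CACCTG E-box, Zeb1 and Snai2 were listed at 0 in all 4 libraries, and Snai1 and Zeb2 were present. Snai1 was 11.9 and 17.4 TPM in controls 1 and 2, 11.5 TPM in the library labelled CD95ko1 and 8.76 TPM in the library labelled CD95ko2 (limma adjusted p = 0.691). Zeb2 was 5.46 and 2.42 TPM in controls 1 and 2, 0.34 TPM in the library labelled CD95ko1 and 1.8 TPM in the library labelled CD95ko2 (limma adjusted p = 0.434). For both, the libraries labelled CD95ko lay below the controls, as for 18.3% of all tested genes, without passing the test. Whether these repressors act on the keratin genes was not tested. These 4 repressors were named after their values were seen.

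Outside the keratins, luminal mammary markers were present only in part. Of 23 such genes 10 were listed at 0 in all 4 libraries, among them the luminal factor Elf5, the progesterone receptor Pgr and the milk genes Csn2, Lalba and Wap. Of the 11 tested 0 were called, and the median log2 fold change was 0.44. At an unadjusted limma p under 0.05, 3 were higher (9.25% of all tested genes were) and 1 was lower (5.68% were). The 3 higher became 2 without control 1 and 1 without control 2. The 1 lower became 2 without the library labelled CD95ko1 and 0 when any other library was left out. Among the 11 tested, Muc1 entered only through the libraries labelled CD95ko, at 1.44 and 1.5 TPM, since neither control reached 1 TPM. Epcam, an epithelial adhesion molecule, was 179 and 166 TPM in controls 1 and 2, against 531.5 and 565 TPM in the libraries labelled CD95ko1 and CD95ko2 (limma adjusted p = 0.0676). Cd24a, a surface marker of luminal cells, was 124 and 86.8 TPM in controls 1 and 2, against 193 and 383 TPM in the libraries labelled CD95ko1 and CD95ko2 (limma adjusted p = 0.181). Cldn3, a tight junction gene, was lower, at 671 and 615 TPM against 441 and 336 TPM (limma adjusted p = 0.278).

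Basal and myoepithelial markers were likewise present only in part. Of 11, Trp63, Myh11 and Oxtr were listed at 0 in all 4 libraries and 3 were tested, with 0 called. The contractile gene Acta2 was at 1.03 TPM in control 2 and at 0 elsewhere. Procr, a progenitor surface marker, was 73.1 and 99.5 TPM in controls 1 and 2, against 109 and 137 TPM in the libraries labelled CD95ko1 and CD95ko2. Sparc, a matrix protein gene, was 128 and 47.1 TPM in controls 1 and 2, 4.83 TPM in the library labelled CD95ko1 and 74.5 TPM in the library labelled CD95ko2, with overlapping groups. Cav1, encoding caveolin, was near 19 TPM in the controls (19.3 and 18.9), at 36.7 TPM in the library labelled CD95ko1 and at 17.2 TPM in the library labelled CD95ko2. The summed basal marker TPM ranged from 169 to 222 over the controls and from 153 to 229.6 in the libraries labelled CD95ko. What part these markers have in the keratin values was not tested.

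Squamous differentiation genes were mostly at 0, in 7 of the 10 with a row. Tgm1, the cross-linking enzyme of the cornified envelope, was 0.44 TPM and 0 in controls 1 and 2, 1.73 TPM in the library labelled CD95ko1 and 23.0 TPM in the library labelled CD95ko2 (limma adjusted p = 0.252). It reached 1 TPM only in the libraries labelled CD95ko, so it entered the test only through the group in which it was higher. Sbsn, encoding suprabasin, was 3.91 and 15.1 TPM in controls 1 and 2, 5.6 TPM in the library labelled CD95ko1 and 51.1 TPM in the library labelled CD95ko2. Both were highest in the library labelled CD95ko2, where Krt14 was also highest. Sfn, encoding 14-3-3 sigma, overlapped between groups with a log2 fold change of -0.45.

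**Figure D4:**
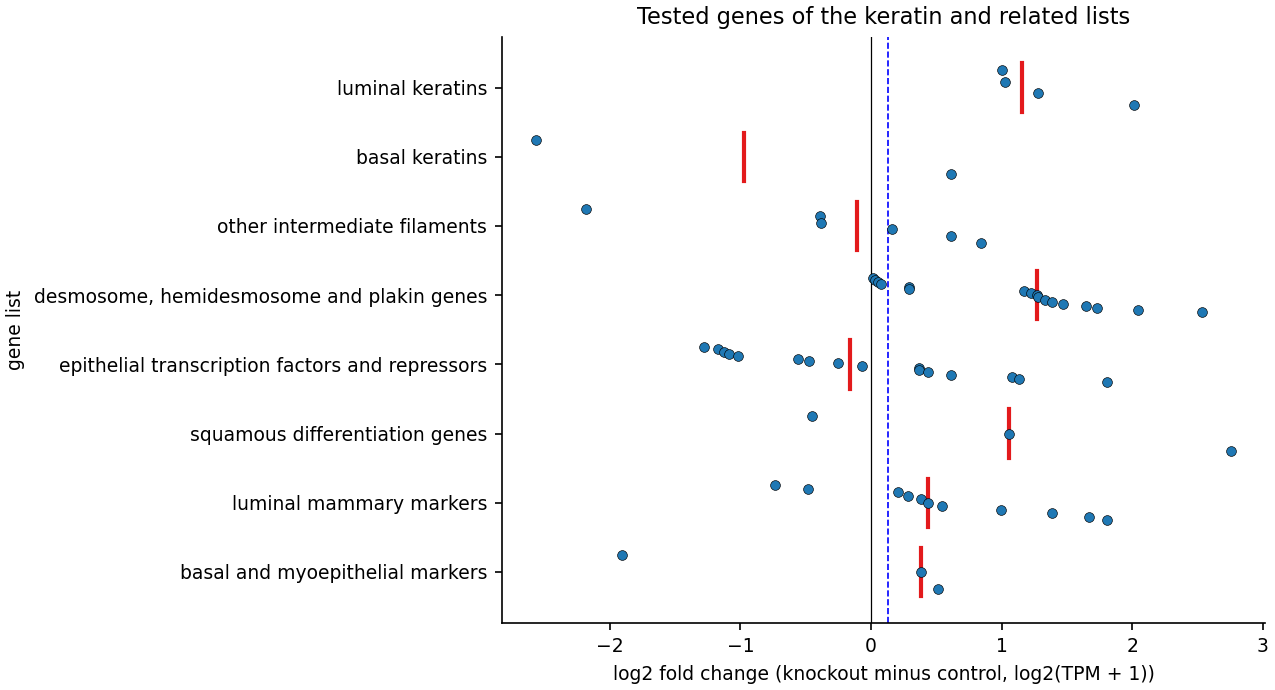
Log2 fold change of each tested gene (points) on log2(TPM + 1) in the keratin groups and the 6 related lists, with the list median as a red bar, 0 as a solid line and the median of all tested genes, 0.13, dashed. Luminal keratins and the desmosome list have medians of 1.15 and 1.27, and the medians of the transcription factor and intermediate filament lists lie at -0.16 and -0.11.

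Profiles most like that of Krt18, the luminal keratin with the highest mean, were sought by Euclidean distance between centred log2(TPM + 1) profiles over the 4 libraries. The nearest were Igsf9 (distance 0.0518), Spry1 (0.0843) and Atg14 (0.115). Igsf9 was 18.0 and 17.8 TPM in controls 1 and 2, 24.5 TPM in the library labelled CD95ko1 and 54.5 TPM in the library labelled CD95ko2. For Krt14, the basal keratin with the highest mean, they were Ccdc159 (0.27), Gng2 (0.346) and Nos2 (0.366), each lowest in the library labelled CD95ko1 and highest in the library labelled CD95ko2. Over 4 libraries such likeness describes differences of similar size between libraries only. The order of the controls was not always shared, as Igsf9 was lower in control 2 than in control 1 and Krt18 was higher.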

How the data were processed

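Poly(A)-selected RNA of 4 libraries of 4T1 cells was sequenced after a SMART-seq2-based protocol without stated molecular identifiers, per the labels' protocols. Values are TPM as deposited by the authors, per the file headers. STAR 2.6.0, RSEM 1.3.0 and the mm10 build are named in the submitters' processing notes; the annotation is not given in the sources used here. TPM keeps no read number, so no counting interval or detection limit could be given, and the median TPM of tested genes ranged from 16.3 to 22.9.

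Groups came from sample titles. Genes with at least 1 TPM in at least 2 libraries (11167) entered limma 3.58.1 (R 4.3.3) on log2(TPM + 1), with a mean-variance trend, two-sided, without covariates. The procedure was run on simulated normal values, where only the median error of planted fold changes had to stay within a limit. Recovery and false calls carried no such requirement. Members and lists were chosen with earlier results of these data known. Named genes were the 10 keratins, other keratins above 1 TPM, up to 4 tested genes per list with the smallest p, and the 3 nearest profiles to the most abundant luminal and basal keratin. Flg, on the squamous list, had no row. Loci and shared 25-base stretches used GENCODE M21 transcripts, taking each gene's longest, and upstream windows used RefSeq GRCm38.p6, kept where the start lay within 200 bases of a protein-coding GENCODE start. Alternatives were other pseudocount, filter, trend, scaling, a replicate block and leaving out each library; robust eBayes was added after seeing the data.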

Additional observations from a re-analysis of the deposited data

How the results depend on the processing

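The number of genes past the adjusted limma threshold, 6 as reported, fell to 0 at a pseudocount of 0.1, to 0 with every gene above 0 kept, to 0 without a trend, 0 under quantile normalization, 0 under median scaling and 0 after leaving out 84 ribosomal protein genes (1553, 1636, 1531, 1862, 1848 and 1685 at an unadjusted p under 0.05). It was 52 with robust eBayes, and 0 to 1034 with a library left out. The cause was not tested. Keratins past it numbered 0 in the reported fit (5 at an unadjusted p under 0.05), 1 with robust eBayes, and 0 to 5 with a library left out.

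Replicate numbers in the titles number different lines and clones and do not pair the libraries (correlation of deviations -0.081). In the fit with this block, 2 genes passed, 1 of them among the 6, and 0 keratins (5 at an unadjusted p under 0.05); the log2 fold changes are the same by construction.

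Over the 6 tested keratins, 47 of 48 values from all 4 libraries kept their direction and side of the threshold. Krt19 gained the threshold with robust eBayes. No keratin passed in the reported fit, so keeping its side means staying uncalled. Directions could not change without filter, without trend, with the replicate block or with robust eBayes. In those fits the log2 fold changes are the same by construction. Median scaling gave the lowest fold changes of Krt7 (0.80), Krt8 (1.08), Krt18 (0.83) and Krt19 (1.81). With a library left out, 6 values gained the threshold and 1 reversed, Krt14 at -1.55 without the library labelled CD95ko2 (2.77 without the library labelled CD95ko1). A pseudocount of 0.1 took Krt17 to -4.30. The luminal to basal balance, 0.69, was from -0.69 to 2.08 with a library left out. It was 2.79 without the most abundant gene on each side, where the groups overlapped. Values were then 9.87 and 6.50 in controls 1 and 2, 9.31 in the library labelled CD95ko1 and 12.7 in the library labelled CD95ko2. In the library labelled CD95ko2 no basal TPM was left without Krt14, so the pseudocount set that value. Depth is unknown, so values listed at 0 cannot be placed below a limit.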
